A study of Mus musculus with 12 samples.

Results

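The metallothioneins and zinc transporters described here were 10 genes of the 34745 in the expression table, namely Mt1, Mt2, Mtf1, Slc30a1, Slc30a5, Slc30a6, Slc30a7, Slc30a9, Slc39a7 and Slc39a10. They were taken by gene symbol, each symbol occurred once in the table, and all 10 passed the filter on low counts in every comparison. The genes were chosen with their measured levels in these libraries known, and it is not recorded which comparison chose them. Their fold changes are therefore given as a description with a standard error (SE) and without a p-value. The SE was derived from the fold change and its test statistic, so it carries the same information as the test and is only an approximate measure of spread. Tests are given for 48 other zinc, metal and glucocorticoid genes. These lists were also chosen with earlier results of these data known, so their p-values are not independent of that choice.

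The libraries came from MLE-12, a mouse lung epithelial cell line used as a stand-in for alveolar type II cells, and all cells were collected at 24 h. LPS cells received 100 ng/mL lipopolysaccharide at 21% O2, and Hyp cells were kept in 85% O2 without it. The groups LPS + M2-Exo and Hyp + M2-Exo also received, after the exposure, 10 µg/mL of exosomes purified from MH-S alveolar macrophages that had been treated with interleukin-4. Each of the 4 groups had 3 libraries. Both conditions are culture models of bronchopulmonary dysplasia in 1 cell line, and no untreated group enters any comparison, so Hyp was read against LPS and each M2-Exo group against its own model. Agent, oxygen level and any difference in handling between the models cannot be told apart.

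Zinc is bound in the cytosol by metallothioneins, small cysteine-rich proteins, of which Mt1 and Mt2 are the forms made in most tissues. MTF-1, encoded by Mtf1, senses free zinc and switches on Mt1, Mt2 and the exporter gene Slc30a1 through short metal response elements in their promoters. Transporters of the ZnT family (Slc30a genes) move zinc out of the cytosol, across the plasma membrane or into organelles, and those of the ZIP family (Slc39a genes) move zinc into it. In the lung, as elsewhere, metallothionein genes are also known to respond to glucocorticoids and oxidative stress.

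The 250 bases before the start site are shown for Mt1, Mt2 and Slc30a1, since these are the members best known as MTF-1 targets and their levels are compared with those of the other members in the text that follows. The sequences are from RefSeq (GRCm38.p6), 5′ to 3′ on the gene's own strand, which is the plus strand for all of them. Capitals mark matches on either strand to the core of the metal response element, searched as TGCACNC and TGCGCNC. The windows are chr8:94178839-94179088 for Mt1, chr8:94172368-94172617 for Mt2 and chr1:191906531-191906780 for Slc30a1.
Mt1: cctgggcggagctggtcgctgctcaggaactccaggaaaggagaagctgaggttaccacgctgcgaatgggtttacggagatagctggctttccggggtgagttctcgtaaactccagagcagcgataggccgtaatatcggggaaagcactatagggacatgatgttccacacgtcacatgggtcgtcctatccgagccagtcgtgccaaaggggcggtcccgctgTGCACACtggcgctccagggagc
Mt2: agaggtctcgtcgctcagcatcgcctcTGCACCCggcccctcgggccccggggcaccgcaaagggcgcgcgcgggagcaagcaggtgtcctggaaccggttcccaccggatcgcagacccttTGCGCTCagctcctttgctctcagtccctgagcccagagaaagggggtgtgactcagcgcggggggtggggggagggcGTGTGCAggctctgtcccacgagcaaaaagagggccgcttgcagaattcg
Slc30a1: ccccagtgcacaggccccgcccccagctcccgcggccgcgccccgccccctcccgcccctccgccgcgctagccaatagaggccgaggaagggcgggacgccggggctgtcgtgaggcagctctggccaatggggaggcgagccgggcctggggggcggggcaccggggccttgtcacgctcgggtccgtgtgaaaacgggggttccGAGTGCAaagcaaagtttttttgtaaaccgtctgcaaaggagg
The Mt2 window held 3 matches, and the Mt1 and Slc30a1 windows held 1 each. All 10 members had a window in the RefSeq table, and Slc30a5 also held 1 match, while the windows of Mtf1, Slc30a6, Slc30a7, Slc30a9, Slc39a7 and Slc39a10 held 0. The Mt1 match lay 23 to 17 bases before the start site and the Slc30a1 match 43 to 37 bases before it. Those of Mt2 began 223, 128 and 50 bases before it. Of all 32851 windows of the same length, 21.4% held at least 1 match and 1.26% held at least 3, so a single match is common. The matches are letters in a window and were not tested as binding sites. Each window ends at the annotated start site used here, and sequence beyond it or before other start sites of these genes was not searched. A low number of matches in a window therefore does not mean that the promoter holds few elements.

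Each library had 16021833 to 24074616 counts. The libraries of both LPS-treated groups had 16021833 to 19185116 counts, and the libraries of both hyperoxia groups had 20231632 to 24074616 counts, so depth differed between the models. The epithelial label was checked against 11 markers, of which 6 reached a mean of 1 on the counts-per-million scale (CPM) in every group. Abca3 and Krt8 were at 134 CPM or more in every library, and Sftpc was at 10.6 to 23.3 CPM. Nkx2-1, a transcription factor of lung epithelium, was at 170 to 185 CPM in the LPS-treated libraries and at 35.2 to 42.3 CPM in the hyperoxia libraries. Sftpa1, Sftpd, Lamp3, Krt18 and Epcam were at or near 0, the highest being Epcam at 1.18 CPM. The sum of the 11 markers was 536 to 580 CPM in the LPS-treated and 328 to 359 CPM in the hyperoxia libraries. Sftpb went the other way, at 1.26 to 1.78 CPM in the LPS-treated and 4.11 to 5.61 CPM in the hyperoxia libraries. The summed CPM of 14 macrophage markers was 465 to 514 in LPS, 361 to 421 when M2-Exo was added to it, 121 to 127 in Hyp and 93.01 to 139 when M2-Exo was added, with Ptprc, Adgre1 and Csf1r detected in all libraries. Against the macrophage sum, Itgax was at most 0.162 CPM in the LPS-treated libraries and at 0.536 to 1.58 CPM in the hyperoxia libraries. The sum of 6 fibroblast markers, mostly Dcn, was 814 to 843 CPM in LPS, 761 to 795 CPM with M2-Exo, and 331 to 359 CPM in the hyperoxia libraries. The sum of 4 endothelial markers was low and higher in hyperoxia, at 0.123 to 0.652 CPM in the LPS-treated and 2.82 to 3.75 CPM in the hyperoxia libraries. These sums moved with the comparisons, and their part in the results was not tested. In bulk RNA, fewer cells of a type and less RNA per cell cannot be told apart.

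The 2 metallothionein genes differed in how far they stood apart between the models. Mt1 was at 128, 135 and 122 CPM in the LPS libraries and at 110, 116 and 128 CPM with M2-Exo. It was at 142, 139 and 149 CPM in Hyp and at 136, 146 and 160 CPM in Hyp + M2-Exo. The Hyp libraries all lay above the LPS libraries, by a narrow margin, and the groups with and without M2-Exo overlapped within each model. The log2 fold change of Mt1 in Hyp against LPS was 0.15 (SE 0.047), or 1.11-fold.

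Mt2 was at 52.6, 51.6 and 47.5 CPM in LPS and at 45.3, 53.0 and 55.3 CPM in LPS + M2-Exo. It was at 99.3, 102 and 89.9 CPM in Hyp and at 105, 117 and 124 CPM in Hyp + M2-Exo. All 6 hyperoxia libraries lay above all 6 LPS-treated libraries, and in hyperoxia the M2-Exo libraries lay above the others without overlap. The log2 fold change was 0.94 (SE 0.063, 1.92-fold) in Hyp against LPS and 1.16 (SE 0.088, 2.23-fold) in Hyp + M2-Exo against LPS + M2-Exo. For M2-Exo it was 0.25 (SE 0.072) in hyperoxia and 0.04 (SE 0.081) in LPS. Of the 50-base stretches in Mt2 transcripts, 45.8% also occur, with both strands searched, in Gm45774, a gene of GENCODE M21 that is not listed in the table. Reads of Gm45774 could therefore be part of the Mt2 values and of the Mt2 to Mt1 ratio.

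The balance of the pair therefore shifted with the model. The libraries held 0.394 ± 0.015 Mt2 counts per Mt1 count in LPS (SD, n = 3) and 0.679 ± 0.069 in Hyp. With M2-Exo the ratio was 0.434 ± 0.023 in LPS and 0.782 ± 0.014 in hyperoxia. The lowest hyperoxia library, at 0.602, was above the highest LPS-treated library, at 0.457. A change in this ratio does not depend on transcript length or library size.

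Mtf1, the zinc-sensing regulator of both metallothionein genes, was at 34.9, 34.0 and 35.8 CPM in LPS and at 35.1, 37.6 and 31.9 CPM in LPS + M2-Exo. It was at 49.4, 51.5 and 51.8 CPM in Hyp and at 56.9, 54.9 and 54.4 CPM in Hyp + M2-Exo. The hyperoxia libraries were all higher, and within hyperoxia the M2-Exo libraries were the higher set. Its log2 fold change was 0.54 (SE 0.049) in Hyp against LPS, 0.65 (SE 0.075) between the models with M2-Exo, and 0.12 (SE 0.048) for M2-Exo in hyperoxia. The 3′ end of Mtf1 overlaps 1110065P20Rik on the opposite strand, and 7.55% of the 50-base stretches in Mtf1 transcripts also occur there. 1110065P20Rik was at 5.93 to 6.42 CPM in LPS and 11.4 to 12.8 CPM in Hyp. Whether the counting used strand is not given in the sources used here, so reads of this overlap could fall to either gene.

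**Figure D1:**
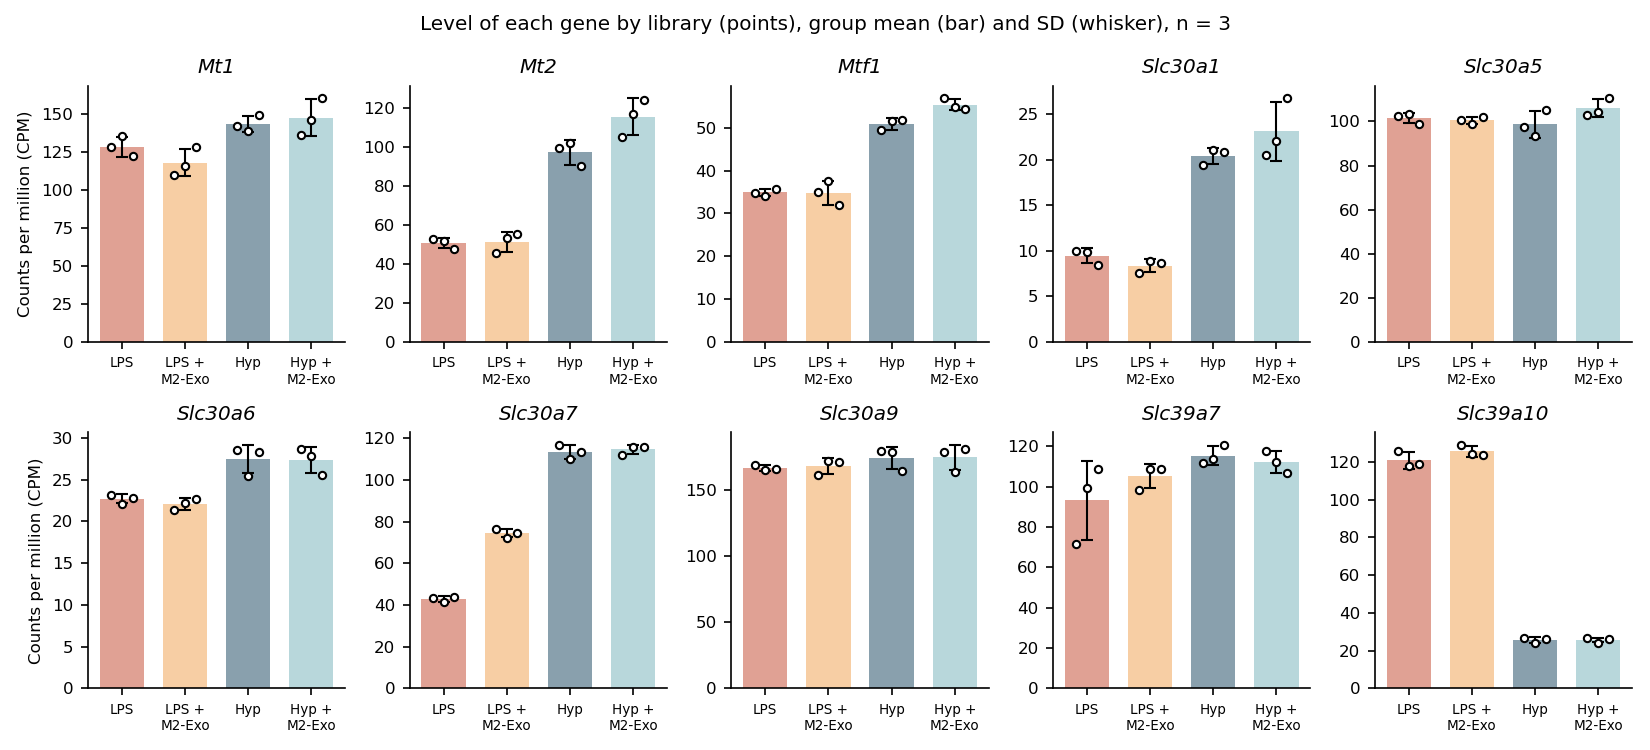
Level of each of the 10 genes in CPM (y axis, linear from 0) in the 4 groups (x axis), with points for the 3 libraries, bars for the mean and whiskers for the SD. Slc30a7 had means of 42.9, 74.4 and 114 CPM in LPS, LPS + M2-Exo and Hyp, Slc39a10 was near 26 CPM in both hyperoxia groups against 121 and 126 CPM in the LPS groups, and Slc30a5 and Slc30a9 overlapped between most groups.

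Among the exporters, Slc30a7 was the member that differed with M2-Exo. It encodes ZnT7, which carries zinc into the early secretory pathway at the Golgi. It was at 43.4, 41.5 and 43.7 CPM in LPS and at 76.3, 72.3 and 74.6 CPM in LPS + M2-Exo. It was at 117, 110 and 114 CPM in Hyp and at 112, 116 and 116 CPM in Hyp + M2-Exo. LPS was lowest, LPS + M2-Exo intermediate and both hyperoxia groups highest, with no overlap between these 3 levels, and the hyperoxia groups overlapped each other.

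The log2 fold change of Slc30a7 for M2-Exo was 0.81 (SE 0.046, 1.76-fold) in LPS and 0.02 (SE 0.039, 1.01-fold) in hyperoxia. Leaving out any 1 library gave 0.79 to 0.83 in LPS and -0.01 to 0.04 in hyperoxia. The difference between these effects, hyperoxia minus LPS, was -0.79 (SE 0.057). Hyp against LPS gave 1.40 (SE 0.044, 2.64-fold), and with M2-Exo in both arms the difference between models was 0.61 (SE 0.044, 1.52-fold). The comparisons of LPS + M2-Exo and of Hyp with LPS share the 3 LPS libraries. By size, 120 of the 13353 genes tested had a larger change than Slc30a7 in LPS + M2-Exo against LPS, in either direction. The summed macrophage and fibroblast markers were both lower in LPS + M2-Exo than in LPS without overlap, as given with the depths, and their part in this difference was not tested.

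Slc30a7 lies at chr3:115938973-116007406 on the minus strand (GRCm38) and overlaps no other gene of the table. Of the 50-base stretches in its transcripts, 15.3% also occur in transcripts of other genes, nearly all in Gm6649 and Gm43106, which are not listed in the table. Reads of these genes could be part of the Slc30a7 values. The nearest genes with a mean of at least 1 CPM were Dph5, 4612 bases away, and Extl2, 56 bases away. Dph5, needed for the diphthamide modification of elongation factor 2, was at 9.92 to 13.2 CPM in LPS, 11.6 to 12.98 CPM in LPS + M2-Exo and 18.6 to 23.8 CPM in Hyp. Its log2 fold change for M2-Exo in LPS was 0.16 (SE 0.13, adjusted p = 0.693, edgeR with Benjamini-Hochberg adjustment), while that in Hyp against LPS was 0.90 (SE 0.13, adjusted p = 0.000397, edgeR). Extl2, a glycosyltransferase gene, had log2 fold changes of -0.08 (SE 0.091, adjusted p = 0.802, edgeR) and 0.00 (SE 0.089, adjusted p = 0.994, edgeR) in the same comparisons. Neither neighbour passed the test for M2-Exo in LPS, and Dph5 was higher in hyperoxia.

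Slc30a5 and Slc30a6 encode ZnT5 and ZnT6, which work as a pair in the same early secretory compartment as ZnT7. Slc30a5 was at 102, 104 and 98.9 CPM in LPS and 101, 98.9 and 102 CPM in LPS + M2-Exo, and at 93.4 to 111 CPM over the hyperoxia libraries. Slc30a6 was at 23.2, 22.1 and 22.8 CPM in LPS and 21.3, 22.2 and 22.7 CPM in LPS + M2-Exo, and at 25.5 to 28.6 CPM over the hyperoxia libraries. For M2-Exo in LPS their log2 fold changes were 0.00 (SE 0.038) and -0.02 (SE 0.062), against 0.81 for Slc30a7. In Hyp against LPS they were -0.04 (SE 0.051) for Slc30a5 and 0.27 (SE 0.066) for Slc30a6, against 1.40 for Slc30a7.

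The ratio of Slc30a7 to these partners was compared per kilobase of merged GENCODE M21 exons, a scale that allows levels of different genes to be set side by side. Slc30a7 was at 3.86 ± 0.11 CPM per kilobase (SD, n = 3) in LPS, 6.70 ± 0.18 in LPS + M2-Exo, 10.2 ± 0.3 in Hyp and 10.3 ± 0.2 in Hyp + M2-Exo. Slc30a6 was at 7.39 ± 0.18 in LPS and 8.93 ± 0.56 in Hyp, and Slc30a5 at 13.9 ± 0.33 and 13.5 ± 0.84. The Slc30a7 to Slc30a6 ratio was 0.522 ± 0.0071 in LPS, 0.933 ± 0.049 in LPS + M2-Exo, 1.14 ± 0.045 in Hyp and 1.16 ± 0.087 in Hyp + M2-Exo. On this scale Slc30a7 was below Slc30a6 in the LPS-treated libraries and above it in the hyperoxia libraries, an order that depends on the lengths used. On the deposited FPKM, which rests on other gene lengths, Slc30a7 stayed below Slc30a6 in every group. The FPKM ratio was 0.332 in LPS, 0.594 in LPS + M2-Exo, 0.729 in Hyp and 0.741 in Hyp + M2-Exo. As a share of the 5 Slc30a members per kilobase, Slc30a7 made up 9.54 ± 0.31% in LPS, 15.6 ± 0.61% in LPS + M2-Exo, 20.2 ± 0.28% in Hyp and 19.7 ± 0.54% in Hyp + M2-Exo. By FPKM the shares were lower, at 6.06%, 10.2%, 13.8% and 13.4% in the same order of groups.

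**Figure D2:**
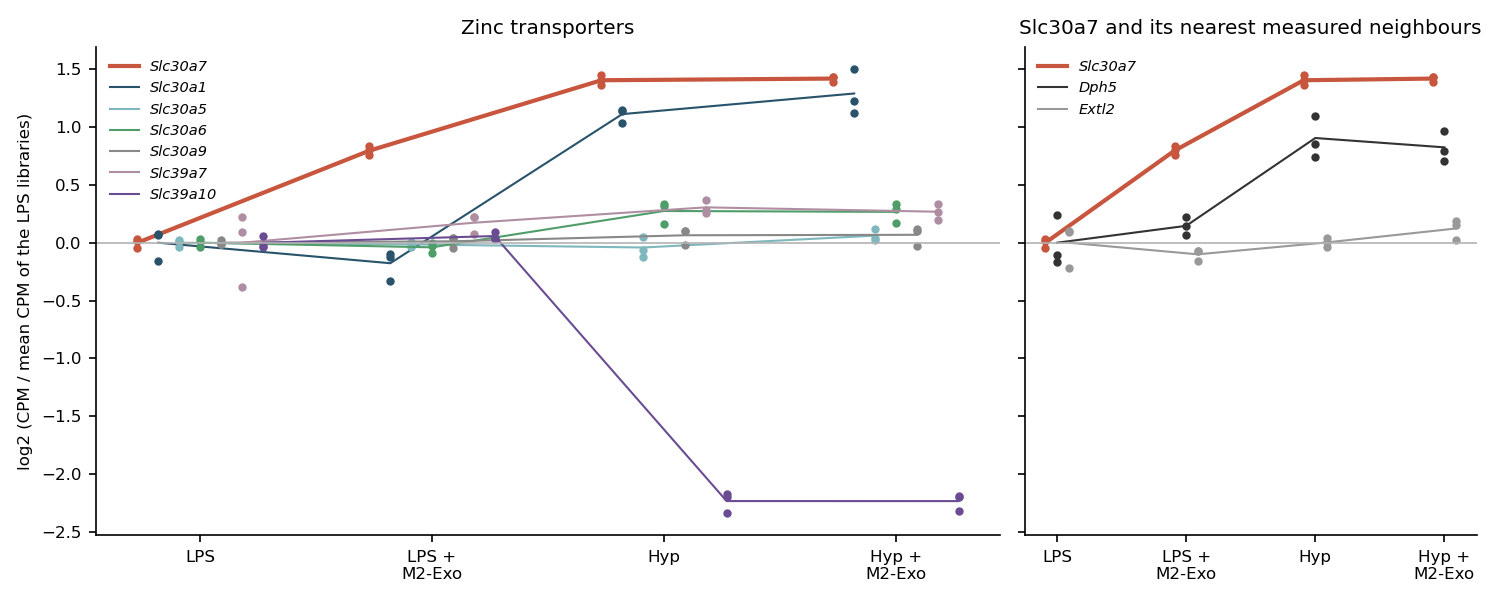
log2 of CPM over the mean of the LPS libraries (y axis) in the 4 groups (x axis), with points for libraries and lines through group means, for the 7 zinc transporter members on the left and for Slc30a7 with its neighbours Dph5 and Extl2 on the right. With M2-Exo in LPS the Slc30a7 libraries all lay above the other genes' libraries, and in hyperoxia Slc30a1 was nearly as high while Slc39a10 was the lowest.

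Slc30a1 encodes ZnT1, the zinc exporter of the plasma membrane and a target of MTF-1. It was among the scarcest members, with 123 to 558 counts in a library. It was at 9.99, 9.92 and 8.48 CPM in LPS and at 7.54, 8.87 and 8.69 CPM in LPS + M2-Exo. It was at 19.4, 21.0 and 20.9 CPM in Hyp and at 20.5, 22.1 and 26.8 CPM in Hyp + M2-Exo. Both M2-Exo comparisons overlapped, and all hyperoxia libraries were above all LPS-treated ones. Between the models it differed by a log2 fold change of 1.11 (SE 0.085, 2.15-fold) without M2-Exo and 1.45 (SE 0.13, 2.73-fold) with M2-Exo in both arms. The antisense gene 1700034H15Rik overlaps the start of Slc30a1 and had at most 22 counts in any library.

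Slc30a9, which encodes the mitochondrial zinc exporter ZnT9, was at 161 to 181 CPM over all 12 libraries and every neighbouring pair of groups overlapped. Its log2 fold changes lay between 0.01 and 0.06 in the 4 comparisons, with SE of 0.038 to 0.052. Slc30a9 and Slc30a5 were the members with the smallest differences between Hyp and LPS.

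Of the importers, Slc39a10 showed the largest difference between the models of any member. It encodes ZIP10, an importer of the plasma membrane. It was at 126, 118 and 119 CPM in LPS and at 129, 124 and 124 CPM in LPS + M2-Exo. It was at 26.8, 23.9 and 26.3 CPM in Hyp and at 26.5, 24.3 and 26.3 CPM in Hyp + M2-Exo. The models were far apart, and within each model the groups with and without M2-Exo overlapped. The log2 fold change was -2.24 (SE 0.057, 4.71-fold lower) in Hyp against LPS and -2.31 (SE 0.057, 4.95-fold lower) with M2-Exo in both arms, against 0.08 (SE 0.043) and 0.00 (SE 0.070) for M2-Exo in LPS and in hyperoxia. By size, 825 of the 13805 genes tested had a larger change in Hyp against LPS. The summed epithelial, macrophage and fibroblast markers were also lower in hyperoxia, while the summed endothelial markers, at most 3.75 CPM, were higher. The part of these markers in the Slc39a10 difference was not tested.

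Slc39a10 and Slc30a1 stood on opposite sides of the model comparison. Per kilobase of merged exons, Slc39a10 was 11.04 ± 0.94 times the level of Slc30a1 in LPS and 13.02 ± 1.496 times in LPS + M2-Exo (SD, n = 3). The ratio was 1.08 ± 0.10 in Hyp and 0.966 ± 0.13 in Hyp + M2-Exo. Gm37393 and Gm28151 overlap Slc39a10 on the same strand and had at most 4 and 18 counts in a library.

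Slc39a7 encodes ZIP7, which releases zinc from the endoplasmic reticulum and Golgi into the cytosol. It was at 71.4, 99.6 and 109 CPM in LPS and at 98.4, 109 and 109 CPM in LPS + M2-Exo, and at 107 to 121 CPM over the hyperoxia libraries. The first LPS library was the low one, and it set the spread of the group (SD 19.6 CPM, against 4.82 to 5.94 CPM in the other groups). In Hyp against LPS the log2 fold change was 0.30 (SE 0.14), with 0.14 to 0.42 when any 1 library was left out. Gm20427, a processed transcript on the same strand, overlaps Slc39a7, and 74.5% of the 50-base stretches of Slc39a7 transcripts also occur in it. Gm20427 was at 33.6 CPM in the first LPS library and 24.9 CPM in the first LPS + M2-Exo library, against 6.79 to 13.5 CPM in the other libraries. The sum of both genes was 112 ± 7.6 CPM in LPS, 122 ± 1.9 CPM in LPS + M2-Exo, 125 ± 4.6 CPM in Hyp and 120 ± 4.0 CPM in Hyp + M2-Exo. The values of the single genes are therefore uncertain, since reads of the shared stretch could be counted to either.

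**Figure D3:**
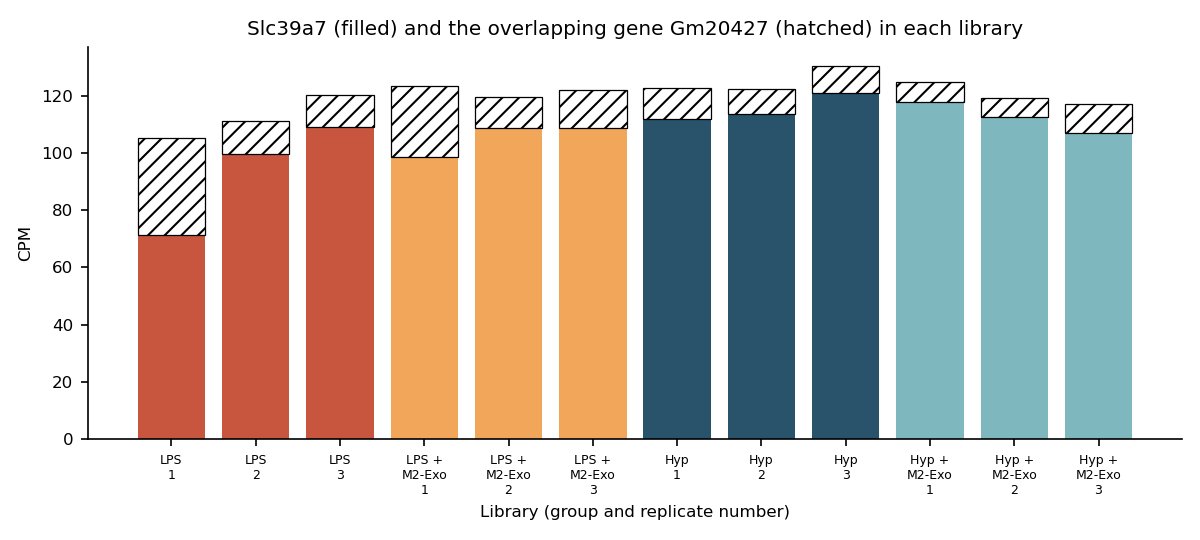
CPM of Slc39a7 (filled bars, coloured by group) and of the overlapping gene Gm20427 (hatched, stacked on top) in each of the 12 libraries (x axis). Gm20427 was at 33.6 and 24.9 CPM in the first library of LPS and of LPS + M2-Exo, where Slc39a7 was lowest in its group, and the stacked sums lay between 105 and 130 CPM.

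The members spanned a wide range of levels. In LPS, in mean CPM per kilobase of merged exons, Mt1 was at 103, Mt2 at 86.0, Slc39a7 at 36.1, Slc39a10 at 19.8, Slc30a5 at 13.9, Slc30a9 at 13.5, Slc30a6 at 7.39, Mtf1 at 3.92, Slc30a7 at 3.86 and Slc30a1 at 1.80. In Hyp, Mt2 was at 165, Mt1 at 115, Slc39a7 at 44.7, Slc30a9 at 14.1, Slc30a5 at 13.5, Slc30a7 at 10.2, Slc30a6 at 8.93, Mtf1 at 5.72, Slc39a10 at 4.21 and Slc30a1 at 3.90. On this scale the order thus differed between the models for the metallothioneins, for Slc39a10 and for Slc30a7. The libraries of Slc30a5 and Slc30a9 overlapped in both groups, as did those of Mtf1 and Slc30a7 in LPS and of Slc39a10 and Slc30a1 in Hyp. The order of the metallothioneins also depends on the length used for Mt1, which is 1.246 kilobases with all annotated exons merged and 0.540 kilobases in the authors' FPKM, a count scaled by gene length and library total. The merged length is no shorter than the 1.237 kilobases that Mt1 spans, so it covers the whole gene, and CPM per kilobase understates Mt1. The change of order of the metallothioneins therefore rests on that length. On the deposited FPKM scale Mt1 was above Mt2 in every group, at 231 ± 13 against 88.1 ± 5.4 in LPS and at 273 ± 11 against 180 ± 12 in Hyp (SD, n = 3). For Slc39a7 the FPKM rests on 6.511 kilobases, which is longer than the 3.424 kilobases that the gene spans, so its FPKM understates its level beside the other genes. Both metallothionein genes were above every transporter member on either scale.

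Counts of members past the threshold (edgeR, Benjamini-Hochberg adjusted p under 0.05) are printed here beside the share of all genes that passed it, and nothing is read from them because the members were chosen with these values known. For M2-Exo in LPS, 1 of 10 members passed (Slc30a7), against 0.187% of 13353 genes, and for M2-Exo in hyperoxia 0 of 10 passed, against 0.101% of 13815 genes. In the latter, 2 members had an unadjusted p under 0.05 in edgeR, and DESeq2 also called 0. In Hyp against LPS, 7 of 10 passed, against 75.8% of 13805 genes, and with M2-Exo in both arms 7 of 10 passed, against 73.7% of 13660 genes. The test that the M2-Exo effect was unequal in the 2 models passed for 1 of 10 members (Slc30a7), against 0.0352% of 14187 genes. An absolute log2 change of 1 or more was seen for 3 of 10 members in Hyp against LPS (24.2% of all genes) and for 3 of 10 with M2-Exo in both arms (24.3%). Libraries did not overlap for 1 member between LPS + M2-Exo and LPS (16.6% of all genes) and for 2 members, Mt2 and Mtf1, between Hyp + M2-Exo and Hyp (15.6%). The median absolute log2 fold change of the members was 0.06 for M2-Exo in LPS and 0.04 in hyperoxia, beside 0.07 for all genes in each. It was 0.42 beside 0.51 in Hyp against LPS and 0.46 beside 0.52 with M2-Exo in both arms.

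**Figure D4:**
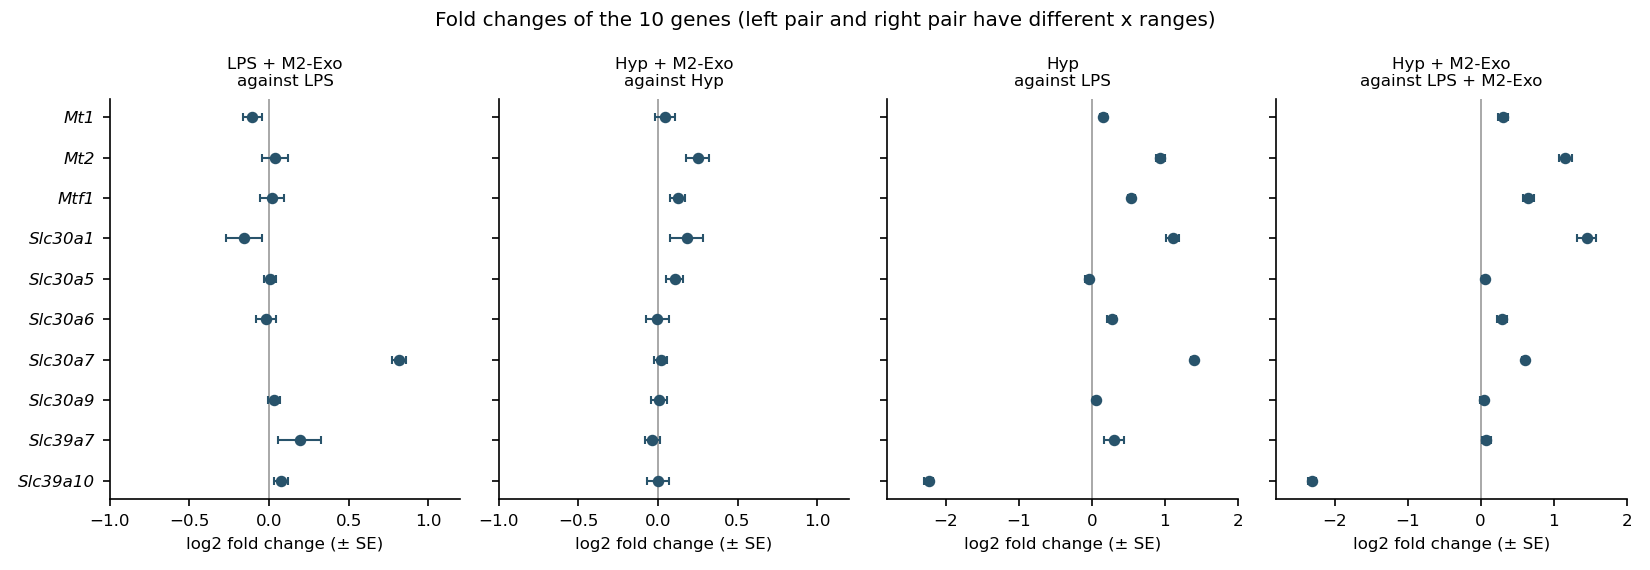
log2 fold change (x axis, whiskers for the SE) of each of the 10 genes in the 4 comparisons. In the M2-Exo comparisons, on the left, Slc30a7 in LPS stands at 0.81 and the other values lie between -0.16 and 0.25, and in the model comparisons, on the right, the values run from -2.31 for Slc39a10 to 1.45 for Slc30a1.

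The other zinc, metal and glucocorticoid genes were tested in the same fits. All 48 were in the table, 1 of them (Selenoh) under its older name 2700094K13Rik. For M2-Exo, 0 of the 34 genes tested in LPS and 0 of the 36 tested in hyperoxia passed (edgeR), with 3 and 4 at an unadjusted p under 0.05, and DESeq2 called 0 in each. For the difference of the M2-Exo effect, 0 of 36 passed (edgeR), with 2 at an unadjusted p under 0.05 and 0 by DESeq2. In Hyp against LPS, 29 of 35 passed, 19 higher and 10 lower in Hyp, and with M2-Exo in both arms 29 of 34 passed, 19 higher and 10 lower. The share of called genes in the whole table was also high in both, at 75.8% and 73.7%.

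Of the other exporters, only Slc30a4 was abundant enough to be tested. Slc30a4, which encodes the vesicular transporter ZnT4, was at 40.4 ± 0.64 CPM in LPS and 88.8 ± 2.7 CPM in Hyp (SD, n = 3), a log2 fold change of 1.13 (SE 0.044, adjusted p = 2.09e-07, edgeR). For M2-Exo in LPS its log2 fold change was 0.00 (SE 0.067), beside 0.81 for Slc30a7. Slc30a3 and Slc30a2 were the next by FPKM, with group means of at most 0.40 and 0.21 CPM. Slc30a8, Slc30a10 and Mt4 had 0 counts, which allows up to 3 in a library, and Mt3 had a mean of 0.028 CPM.

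Of 10 other importers tested in Hyp against LPS, 4 rose and 3 fell, beside 75.8% of all genes that passed. Slc39a1, Slc39a6 and Slc39a9 had the highest FPKM. Slc39a1 encodes ZIP1, an importer of the plasma membrane, and was at 173 ± 3.9 CPM in LPS and 139 ± 2.9 CPM in Hyp (log2 -0.32, SE 0.033, adjusted p = 4.39e-05, edgeR). Slc39a6, the closest relative of Slc39a10, was at 140 ± 2.4 CPM in LPS and 229 ± 1.7 CPM in Hyp, so it moved against Slc39a10 (log2 0.70, SE 0.029, adjusted p = 2.66e-07, edgeR). Slc39a9 did not pass, with a log2 fold change of -0.02. Slc39a11 rose by 0.78, Slc39a3 by 0.34 and Slc39a8 by 0.33 on the log2 scale, and Slc39a4 and Slc39a13 had values of -0.82 and -0.76. With M2-Exo in both arms 6 of 9 passed, beside 73.7% of all genes, 3 higher and 3 lower. Slc39a3 did not pass there (-0.12, SE 0.22, adjusted p = 0.624, edgeR).

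All 5 tested genes of the list of other MTF-1 targets passed in Hyp against LPS, beside 75.8% of all genes. Of these targets 3 were higher and 2 lower, so they did not move one way. Selenoh (2700094K13Rik), a selenoprotein gene, rose by 1.18 (SE 0.11, adjusted p = 2.69e-05, edgeR). Gclc, which encodes the catalytic subunit of the first enzyme of glutathione synthesis, rose by 0.33, and Ndrg1 by 0.32. Slc40a1, which encodes the iron exporter ferroportin, was lower by a log2 fold change of -1.02 (SE 0.17, adjusted p = 0.00082, edgeR), from 3.37 to 1.67 CPM. Csrp1 had a value of -0.15.

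Of the zinc enzymes that mature in the secretory pathway, 5 were tested in Hyp against LPS and all 5 passed, beside 75.8% of all genes. Pigo, Pigg and Enpp1 rose by 0.65, 0.56 and 0.57, while Enpp2, which encodes autotaxin, and Pign had log2 fold changes of -1.69 and -0.37. Alpl had a mean of 0.015 CPM. For M2-Exo in LPS, where Slc30a7 stood apart, the 5 log2 fold changes lay between -0.20 and 0.17 and none passed (edgeR), with 1 at an unadjusted p under 0.05 and 0 by DESeq2.

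The copper genes gave 5 of 8 past the threshold in Hyp against LPS, 4 of them higher, beside 75.8% of all genes past it. Atp7b, a copper-exporting ATPase, rose by 2.05 (SE 0.24, adjusted p = 9.06e-05, edgeR) from a low level, 0.652 to 2.73 CPM, and Slc31a2, Cox17 and Ccs rose by 0.56, 0.57 and 0.26. Commd1 had a log2 fold change of -0.50. With M2-Exo in both arms Slc31a1 and Atp7a also passed, at 0.18 and 0.17. Of the glucocorticoid-responsive genes, all 6 tested passed in Hyp against LPS, in both directions, beside the same 75.8% of all genes. Klf9 rose by 0.79, Sgk1 by 0.58, Per1 by 0.23 and Fkbp5 by 0.15, and Dusp1, a phosphatase of MAP kinases, and Tsc22d3, which encodes GILZ, had values of -1.38 and -0.53. With M2-Exo in both arms 5 of 6 passed, beside 73.7% of all genes, and Per1 did not (log2 0.06, SE 0.11, adjusted p = 0.622, edgeR).

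**Figure D5:**
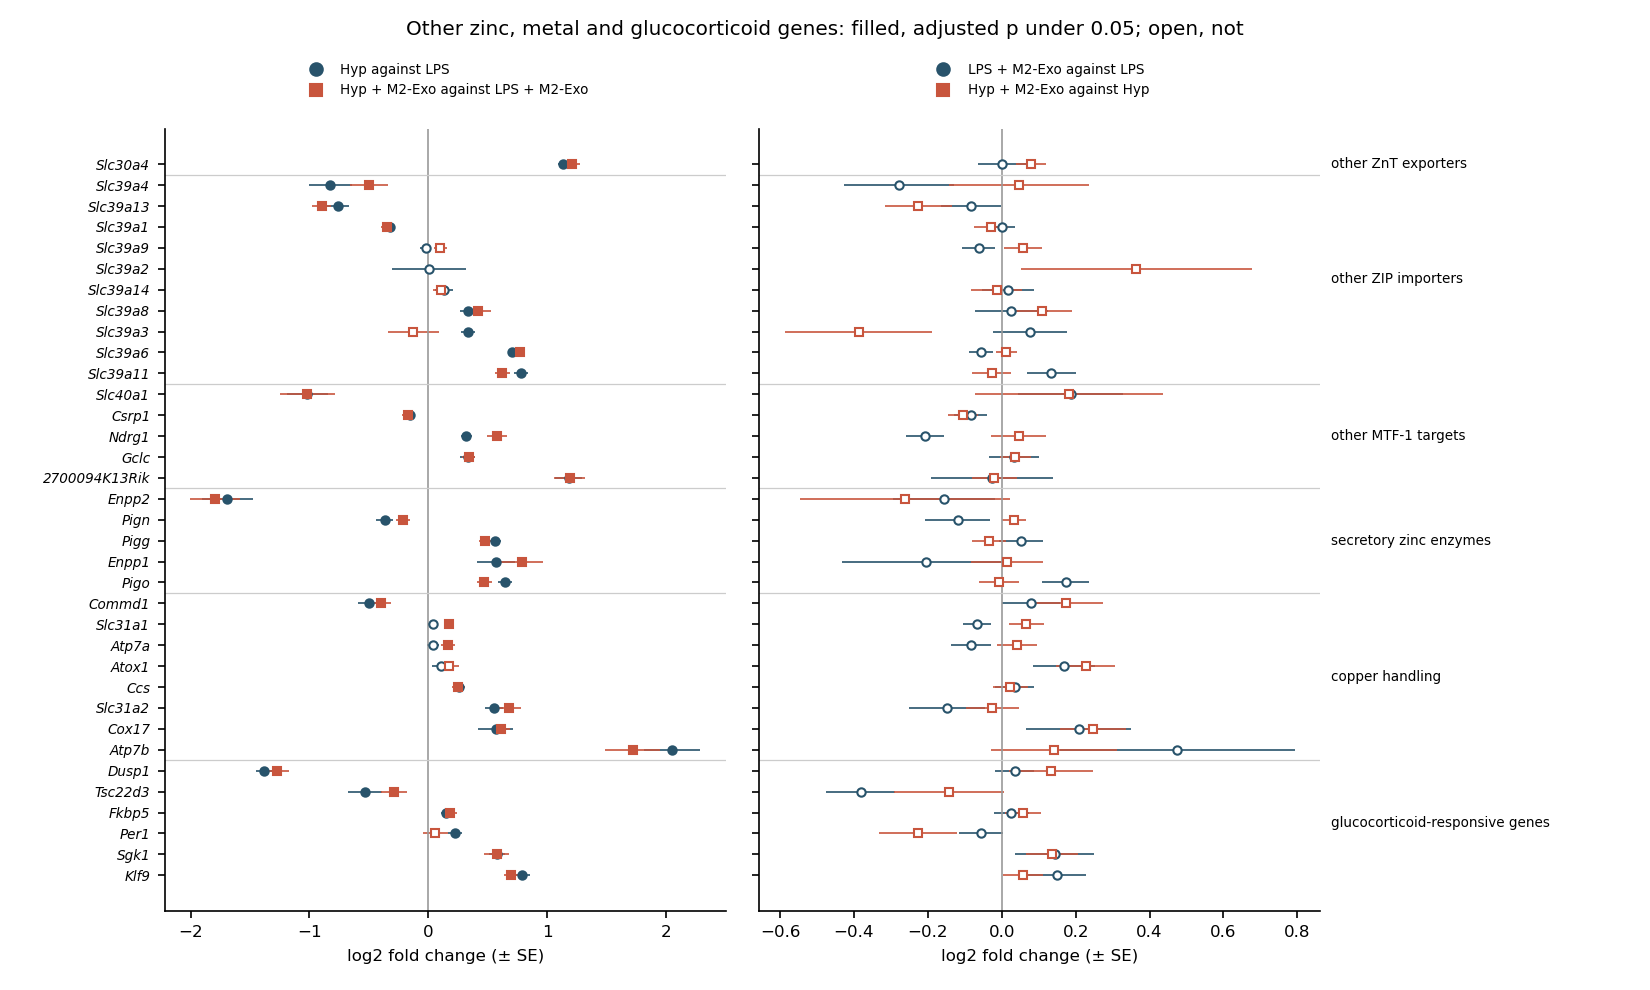
log2 fold change (x axis, whiskers for the SE) of the other zinc, metal and glucocorticoid genes, grouped by list, for the model comparisons on the left and the M2-Exo comparisons on the right, with filled symbols for an adjusted p under 0.05. On the left 29 genes are filled in each comparison and run from Enpp2 at -1.69 to Atp7b at 2.05 in Hyp against LPS, and on the right 0 are filled.

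The genes whose pattern over the 12 libraries was most like that of Slc30a7 were 6820431F20Rik (Pearson r = 0.984 of log2 CPM), Adrm1 (r = 0.974) and Gripap1 (r = 0.966), among 12699 genes compared. 6820431F20Rik was at 8.36 CPM in LPS, 14.99 in LPS + M2-Exo, 29.1 in Hyp and 28.6 in Hyp + M2-Exo, the same order of groups as for Slc30a7 up to the hyperoxia pair. Adrm1, which encodes a ubiquitin receptor of the proteasome, and Gripap1 had smaller differences, with log2 fold changes of 0.22 and 0.13 for M2-Exo in LPS. For Mt2 the nearest were Cd164, Msantd4 and Ranbp2 (r = 0.995, 0.994 and 0.994), and for Mt1 they were 2410089E03Rik, Taf2 and Osbpl8 (r = 0.949, 0.949 and 0.948). These values describe 12 libraries in 4 groups that share the model difference and the depth difference, and no test is attached to them.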

How the data were processed

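RNA of MLE-12 cells, 3 libraries in each of 4 groups, had been enriched for poly(A) and sequenced. The authors deposited 1 table of raw counts and FPKM per gene and library for 34745 genes. Submitters' processing notes name HISAT2 2.0.4, StringTie 1.3.0, edgeR and GRCm38. The counting program and its strand setting are not given in the sources used here. The deposited FPKM equals counts over the library total and a gene length, which for several genes sums overlapping exons, so levels of different genes were compared as CPM per kilobase of merged GENCODE M21 exons. Groups were taken from the sample titles. The labels do not say that libraries of a group came from separate cultures, so p-values measure the spread between these libraries, which may be technical.

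Counts were tested with edgeR 4.0.16 in R 4.3.3 (TMM scaling, filterByExpr, quasi-likelihood F test, Benjamini-Hochberg adjustment over all genes tested), on the 6 libraries of the groups compared. The difference of the M2-Exo effect was fitted on all 12. The SE of a log2 fold change was derived from that fold change and its F statistic, and is not an error fitted separately. It is unreliable for very small changes. For Slc40a1 the SE of the difference of the M2-Exo effect was 0.122. That is below the SE of the M2-Exo effect in LPS, 0.143, and in hyperoxia, 0.254. DESeq2 1.42.0, RLE scaling, no filter, 1 fit of all libraries, a replicate block and leaving out each library were alternatives. Simulated counts, drawn from the model that edgeR assumes, were used only to check that the code returned set fold changes. They say nothing about how well that model holds for these libraries. The members and lists were chosen with earlier results of these data known. The text names all members, list genes with an adjusted p under 0.05, the 3 most abundant genes of the other exporters and importers by FPKM, genes overlapping a member, the neighbours of Slc30a7, and the 3 genes most correlated with Slc30a7, Mt1 and Mt2. Others named, such as list genes without counts, were picked after their values were seen. No table column was left unused.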

Additional observations from a re-analysis of the deposited data

Results flagged for a closer look

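The effect of M2-Exo on Slc30a7 differed between the models: the log2 fold change in hyperoxia minus that in LPS was -0.79 (SE 0.057), a term that passed the threshold in edgeR. Slc30a7 was measured before it was chosen, so this value describes the gene and is not an independent test. Leaving out each library in turn gave -0.81 to -0.77. Without M2-Exo, Slc30a7 was at 110 to 117 CPM in the Hyp libraries and at 41.5 to 43.7 CPM in the LPS libraries. With 3 libraries in each group, no search for single libraries far from their group was made.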

How the results depend on the processing

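Of 440 values of the 10 members under the alternatives, 440 stayed within 1 SD of the spread between libraries. Leaving out 1 of 3 libraries can hardly move a group mean by that much, and the other alternatives reuse the same counts. The count of 440 therefore says little about how firm the values are. Reversals were counted only for values called in the main fit, and there were 0. Some uncalled values near 0 did change sign. Mt1 for M2-Exo in hyperoxia went from 0.04 to -0.02 without Hyp + M2-Exo replicate 3. Slc30a7 passed the threshold for M2-Exo in LPS and for the difference of the M2-Exo effect under every alternative run, and 0 members passed for M2-Exo in hyperoxia under any. The alternatives reuse the same libraries, and the members were chosen with these values known, so nothing is read from these passes. In Hyp against LPS the call of Mt1 was lost without LPS replicate 1, LPS replicate 3 or Hyp replicate 3. Slc39a7 was called there by DESeq2, in the fit of 12 libraries, with the replicate block and without LPS replicate 3, and Slc30a9 without Hyp replicate 3. The number of other zinc, metal and glucocorticoid genes called stayed at 0 in the M2-Exo comparisons and their difference. It was 28 to 29 in Hyp against LPS, and 26 to 30 between the models with M2-Exo, under all alternatives.

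Calls over all genes moved more. For M2-Exo in LPS edgeR called 25 genes, DESeq2 130, the 12-library fit 12, the replicate block 6, and leaving out a library 21 to 39 (39 without LPS replicate 1, 37 without LPS + M2-Exo replicate 1). In hyperoxia edgeR called 14, DESeq2 37, the 12-library fit 2, the replicate block 8, and leaving out a library 12 to 21. For the difference of the effect edgeR called 5, DESeq2 70, no filter 13, the replicate block 3, and leaving out a library 4 to 34 (34 without Hyp + M2-Exo replicate 1, and 8 to 10 without LPS replicate 1, LPS replicate 3, LPS + M2-Exo replicate 2 or Hyp replicate 2). Replicate numbers paired the libraries weakly at most: correlations of same-numbered deviations were -0.03 to 0.07. Over the comparisons, 7 of 12 same-numbered pairs were the best match for the library of the first group. Without a filter the median log2 fold change of all genes was 0.11 between the models with M2-Exo. Depth limits Slc30a1 most, at 123 to 558 counts.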
